A study of Mus musculus with 16 samples.

Results

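The lysosome is the acidic compartment in which cells break down proteins, sugars and lipids delivered by endocytosis and autophagy. In dendritic cells (DCs) its cysteine proteases also trim internalized antigens and the invariant chain of MHC class II, so that peptides can be loaded for presentation to T cells. A proton pump of many subunits, the V-ATPase, acidifies the lumen, and TFEB and related factors activate many lysosomal genes through E-boxes in their promoters. The data described here are the mRNA signals of 43 lysosomal genes in mouse DC progenitors. They were chosen by function and not by a filter on their values, though earlier results of these data were known. They are cathepsins and other proteases, hydrolases and their activators, membrane proteins, the regulator Tfeb and subunits of the proton pump. A gene was included if a probe set of the array mapped to its symbol alone. All 43 listed genes met this, each with 1 probe set, among 19938 genes measured in all. For description they were divided into 8 groups by role.

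Expression was read on Affymetrix Mouse Gene ST arrays, which carry several probes along each gene, with 16 arrays in 8 groups of 2. CD45.2+ monocyte-DC progenitors (MDPs, which yield monocytes and DCs) and common DC progenitors (CDPs, which yield DCs) were purified from bone marrow of WT or IkL/L mice that were 6 to 9 weeks old. IkL/L mice carry a hypomorphic mutation of Ikzf1, the gene of the transcription factor Ikaros. The strain of the CD45.2+ mice was not given in the sources used here. Each population was cultured for 24 h with CD45.1+ WT bone marrow cells and Flt3L, with either vehicle (DMSO) or GSI. GSI is the γ-secretase inhibitor Compound E, used at 5 µM, which blocks the cleavage that activates Notch receptors. The authors state that such inhibitors also act on pathways other than Notch. RNA was taken from the CD45.2+ cells sorted again after the culture, so MDP and CDP name the cells put in, whose stage at the end was not measured. The groups are thus WT MDPs, IkL/L MDPs, WT CDPs and IkL/L CDPs, each with vehicle and with GSI. Cells came from 2 mice per condition. Whether the replicate number 1 or 2 marks a shared mouse or day was not given in the sources used here.

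Values are log2 signals after RMA, the authors' background correction, normalization between arrays and summary of probes, so a difference of 1 is a doubling. Array medians ran from 4.52 to 4.65, and 42 of the 43 genes lay above the median in every array. The exception was Atp6v0d2, a V0 subunit best known from osteoclasts and macrophages, at 3.80 to 4.72. The mean of the 43 genes ran from 8.62 to 9.28 over the arrays, and that of all genes from 5.45 to 5.49. The shares of all measured genes given below were thus not matched for signal. Replicate arrays correlated at r = 0.983 to 0.996 over the genes of an array, which are not independent of each other. Ikzf1 itself ran from 8.90 to 9.20 in the WT arrays and from 8.36 to 8.94 in the IkL/L arrays. These values are mRNA, and the authors put functional Ikaros protein in IkL/L cells far below the WT level. Array 2 of WT CDPs with vehicle stood apart in its neutrophil granule genes: Mpo was 11.67 there against 7.85 in array 1, and Elane 9.60 against 6.14. MDP arrays ran from 11.37 to 12.31 for Mpo and from 10.22 to 11.29 for Elane. Differences that this array moves by much are also given without it.

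The promoters of these genes carry E-boxes more often than promoters at large. RefSeq promoter windows (GRCm38.p6, 250 bases before to 50 after the annotated start of transcription) were at hand for 36 of the 43 genes. The E-box CACGTG, which reads the same on both strands, was present for 15 of the 36 genes (41.7%), against 8.09% of all 27025 genes with windows and 20.8% of 53 other lysosomal genes. The core of the CLEAR motif, TCACGTG on either strand, contains this E-box. It was present for 14 of the 36 genes (38.9%), against 4.29% of all genes. A related M-box, TCATGTG on either strand, was present for 7 of the 36 (19.4%), against 4.31% of all genes. A match is a description of letters and does not show that a factor binds. The stretches below are shown because they belong to genes on which the comparisons turn (Lgmn, Ctsa, Ifi30, Atp6v0b and Ctss), or hold several matches (Lamp1 and Cln3). Capitals mark the E-box, or in Ctss the M-box, which lies just after the start of transcription.
Lgmn, chr12:102439116-102439161, minus strand: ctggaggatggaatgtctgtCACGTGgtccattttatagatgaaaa
Ctsa, chr2:164833758-164833786, plus strand: tgtCACGTGatgcagatgctCACGTGacc
Ifi30, chr8:70766834-70766879, minus strand: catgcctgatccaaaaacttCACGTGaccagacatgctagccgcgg
Atp6v0b, chr4:117887330-117887385, minus strand: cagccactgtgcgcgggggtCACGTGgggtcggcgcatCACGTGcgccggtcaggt
Lamp1, chr8:13159080-13159160, plus strand: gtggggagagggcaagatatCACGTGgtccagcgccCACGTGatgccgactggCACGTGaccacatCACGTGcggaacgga
Cln3, chr7:126583332-126583405, minus strand: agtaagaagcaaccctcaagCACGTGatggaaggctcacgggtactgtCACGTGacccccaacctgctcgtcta
Ctss, chr3:95526793-95526821, plus strand: ttgtggatgctTCATGTGacaagctccga
The stretch of Lamp1, a main glycoprotein of the lysosomal membrane, holds 4 E-boxes, and those of Atp6v0b, Cln3 and Ctsa hold 2 each.

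**Figure D1:**
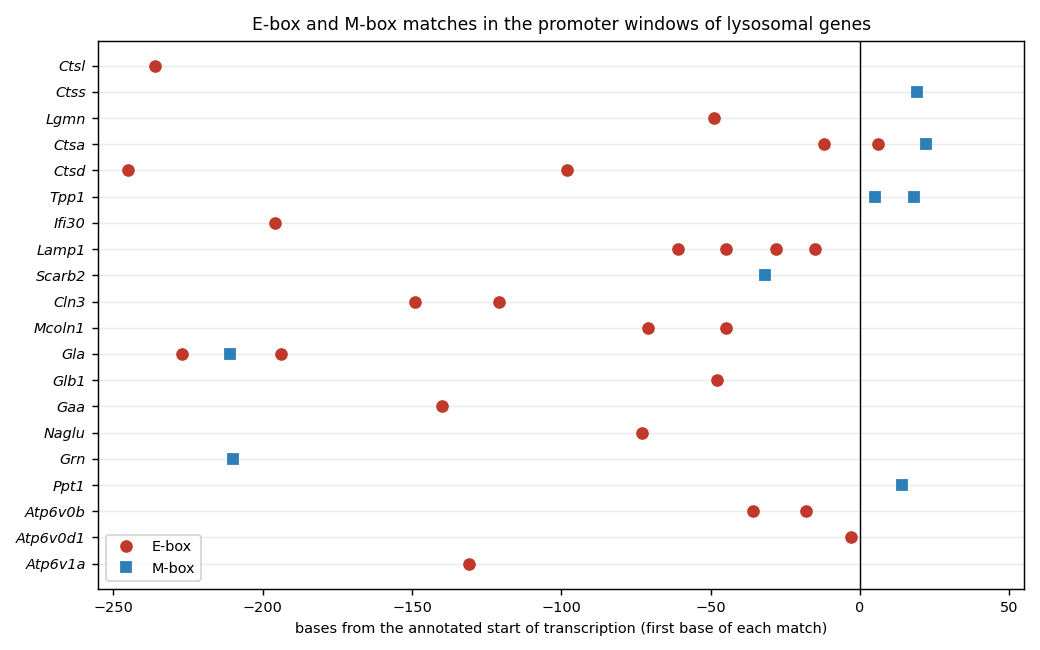
Matches of the E-box (red circles) and the M-box (blue squares) in RefSeq promoter windows, against distance in bases from the annotated start of transcription, with 1 row per gene. The 4 matches of Lamp1 lie within 61 bases before the start, while those of Ifi30 and Gla lie farther upstream.

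Members with and without an E-box were set side by side in each comparison, with no test. For IkL/L against WT the median log2 difference was 0.15 over the 15 genes with an E-box and 0.11 over the 21 without. For CDPs against MDPs the medians were -0.07 and -0.10, and for GSI against vehicle they were -0.06 in both. Of the 7 members that rose in CDPs, Lgmn, Ctsa and Ifi30 have an E-box, Ctss, Ctsz and Gm2a do not, and Ctsh had no window.

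The 2 arrays of each CDP group differed in lysosomal mRNA. The array labelled 1 was above the array labelled 2 for 38 of the 43 genes in WT CDPs with vehicle, 37 with GSI, 39 in IkL/L CDPs with vehicle and 39 with GSI. Over all genes the share was 43.1%, 43.6%, 51.6% and 46.5%. For 34 of the 43 genes (79.1%) array 1 was higher in all 4 CDP groups, against 11.6% of all genes, of which 16.3% were lower in all 4. In the 3 CDP groups other than WT with vehicle, whose array 2 stood apart, array 1 was higher throughout for 35 of the 43 genes, against 18.2% of all genes. In the 4 MDP groups array 1 was higher throughout for 0 of the 43 genes, against 10.6% of all genes. Array 1 was lower in all 4 MDP groups for Ctsc, Ctsh, Ctsl, Ctss, Ctsz, Lgmn, Ctsa, Ifi30, Cln3, Atp6v0d1, Atp6v1c1 and Atp6v1h. The share of all genes lower throughout in MDPs is not given here.

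The median gap between array 1 and array 2 was 0.37 in WT CDPs with vehicle, 0.46 with GSI, 0.29 in IkL/L CDPs with vehicle and 0.35 with GSI, on the log2 scale. In MDPs it ran from -0.18 to 0.02. Ctsl, a cysteine protease that processes the invariant chain and other substrates, had the widest mean gap in CDPs. It measured 8.56 and 7.04 in WT CDPs with vehicle and 9.01 and 7.21 with GSI. In IkL/L CDPs it measured 8.83 and 7.46 with vehicle and 8.81 and 7.52 with GSI. The arrays labelled 2 were thus lowest in every CDP group, and the genotypes overlapped. Lipa, the acid lipase of the lysosome, and Gla, which removes terminal galactose from glycolipids, had mean gaps of 1.03 and 1.01. All 5 V1 subunits of the proton pump and both accessory subunits shared the direction. The exceptions were Ifi30 and Smpd1, which were lower in array 1 of every CDP group, and Ctsh, Ctsz, Tfeb, Glb1, Gaa, Gm2a and Atp6v0d2, which went both ways.

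Markers of other cells moved with this gap. Of 12 monocyte and macrophage markers, 7 were higher in array 1 of all 4 CDP groups, with a median gap of 0.97. Their mean level ran from 7.94 to 8.52 in the 4 CDP arrays labelled 1 and from 6.77 to 7.55 in those labelled 2. Mast cell and basophil markers moved with it too, 5 of 6 higher in array 1 of all 4 CDP groups with a median gap of 0.76. Of 15 neutrophil markers 3 did so, with a median gap of 0.57. By contrast, 0 of 8 pDC markers and 0 of 8 cDC markers were higher in array 1 throughout, with median gaps of -0.57 and -0.51. The part of cell composition in the gap was not tested, and in bulk RNA a change in the share of a cell type cannot be told apart from a change per cell. For 34 of the 43 genes the mean absolute gap between replicates in CDPs was wider than the mean absolute genotype difference in CDPs, against 65.5% of all genes. The gap sets single arrays against each other, while the genotype difference sets means of 2 arrays against each other. Noise alone thus makes the gap the wider measure for many genes, so this count does not rank replicate against genotype differences.

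**Figure D2:**
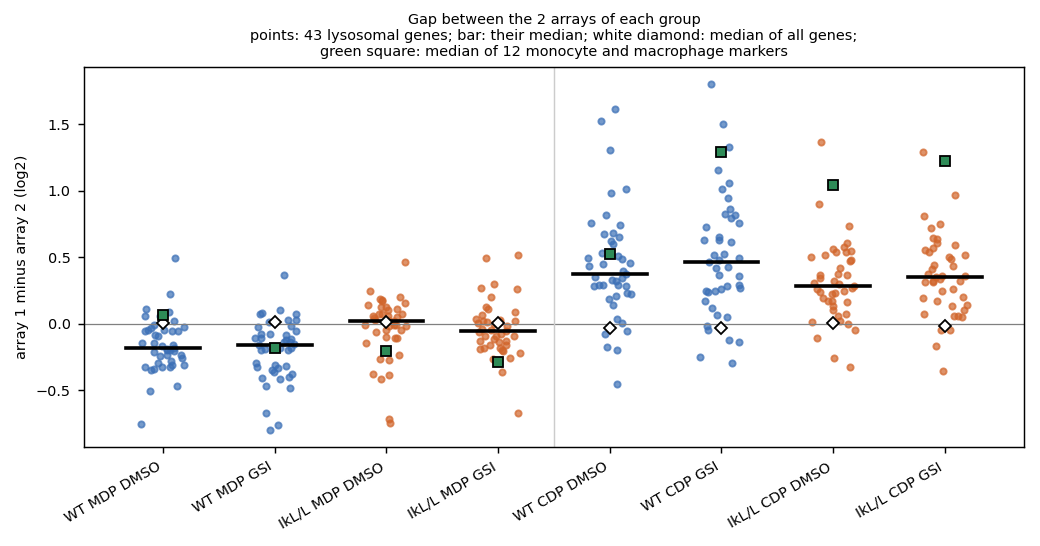
Log2 difference between array 1 and array 2 in each of the 8 groups. Points are the 43 lysosomal genes (blue WT, orange IkL/L), black bars their median, white diamonds the median of all 19938 genes and green squares the median of 12 monocyte and macrophage markers. The bars lie between 0.29 and 0.46 in CDPs and between -0.18 and 0.02 in MDPs.

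CDPs were compared with MDPs to see which lysosomal genes differed by stage, averaging the 4 pairs of groups (WT and IkL/L, vehicle and GSI). The genes that rose were 4 cysteine proteases, 2 of the other proteases and reductase, and 1 activator of lipid hydrolysis. Over all 43 genes 7 rose (16.3%) and 0 fell, where 4.72% of all genes rose and 4.01% fell. Of the 7 cysteine cathepsins and legumain, Lgmn, Ctss, Ctsh and Ctsz rose. Ctsa and Ifi30 rose among the 4 other proteases and the thiol reductase, and Gm2a among the 7 lipid hydrolases and their partners. Calls are adjusted p under 0.05 in limma, adjusted over all genes by Benjamini-Hochberg. The other 36 genes did not pass, among them all 8 glycosidases, all 6 membrane proteins and regulators and all 11 proton pump genes. The count of 0 that fell depended on the settings: some members with lower means passed without single arrays. With the replicate number as a block within each stage, chosen after seeing the data, 23 members passed. More of them fell than rose, where 6.66% of all genes rose and 6.74% fell under that block. At an unadjusted p under 0.05, 9 members were higher and 9 lower, where 8.95% and 10.8% of all genes were. The median log2 difference over the 43 genes was -0.06, against -0.02 over all genes, and 20 of the 43 had a higher mean in CDPs (41.9% of all genes). CDP arrays lay above the MDP arrays in all 4 pairs for Lgmn, Ctss, Ifi30 and Ctsa, as for 2.43% of all genes.

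Lgmn, an asparaginyl endopeptidase that activates cathepsins and cuts antigens, differed most. Its log2 signal in MDPs was 5.83 and 5.99 in WT with vehicle, 5.26 and 6.06 in WT with GSI, 5.80 and 6.54 in IkL/L with vehicle, and 6.36 and 6.62 in IkL/L with GSI. In CDPs it was 8.37 and 7.06, 8.49 and 7.76, 8.58 and 8.21, and 8.94 and 8.37 in the same order. Every CDP array lay above every MDP array. The averaged difference was 2.16 ± 0.22 (log2, SE), a 4.48-fold rise, with adjusted p = 2.44e-04 in limma. Among vehicle-treated cells alone, 0 members passed in WT and only Lgmn in IkL/L, where 0.0953% and 1.71% of all genes passed. At an unadjusted p under 0.05 there were 3 and 9, all higher in CDPs, where 5.38% and 10.7% of all genes passed in either direction. The difference of Lgmn was 1.81 in WT (adjusted p = 0.32 in limma) and 2.22 in IkL/L (adjusted p = 0.0339 in limma). Without array 2 of WT CDPs with vehicle it was 2.46 in WT. In vehicle-treated WT cells the median over the 43 genes was then 0.22, in place of -0.03 with all arrays. Without that array 35 of the 43 genes had a higher mean in CDPs, against 9015 of all 19938 genes. The call in IkL/L cells was lost without any of 8 of the 16 arrays, with adjusted p up to 0.277, and with the compared groups fitted alone (adjusted p = 0.0557). Across the 16 arrays left out in turn the averaged difference kept its call.

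Ctss, the main protease for the invariant chain in DCs, ran from 10.43 to 11.07 in the 8 MDP arrays (median 10.80) and from 10.79 to 11.88 in the 8 CDP arrays (median 11.54). The lowest CDP value, array 2 of WT with vehicle, was just above the MDP arrays of its own group. Ctss rose 1.57-fold (log2 0.65 ± 0.11 SE, adjusted p = 0.00436 in limma). Ifi30, which encodes the reductase GILT that opens disulfide bonds of antigens, ran from 10.04 to 11.08 in MDPs (median 10.58) and from 10.92 to 11.62 in CDPs (median 11.25). Its rise was 1.55-fold (log2 0.63 ± 0.13 SE, adjusted p = 0.0145 in limma). Unlike Ctss, it was higher in array 2 than in array 1 of all 8 groups.

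Ctsh, an aminopeptidase, ran from 9.36 to 9.83 in MDPs (median 9.62) and from 9.46 to 10.38 in CDPs (median 10.15). Its lowest CDP value was array 2 of WT CDPs with vehicle, which overlapped the MDPs. Ctsh rose 1.42-fold (adjusted p = 0.01 in limma). Ctsa, a carboxypeptidase that also protects other lysosomal enzymes, ran from 9.97 to 10.32 and from 10.30 to 10.84, and rose 1.35-fold (adjusted p = 0.0127 in limma). Gm2a, the activator that presents GM2 ganglioside to hexosaminidase, ran from 10.05 to 10.76 and from 10.64 to 11.13, and rose 1.39-fold (adjusted p = 0.00215 in limma). Ctsz, a carboxypeptidase, rose 1.30-fold (adjusted p = 0.0331 in limma). This call was lost without any of 10 of the 16 arrays, with adjusted p up to 0.0845.

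Several other members had large differences but did not pass the test. Lipa was 9.34 on average in MDPs and 10.23 in CDPs, a log2 difference of 0.89 ± 0.25 (SE), with adjusted p = 0.0568 in limma. Within each CDP group array 1 was above array 2, though the ranges over the groups overlapped (10.28 to 11.11 and 9.12 to 10.57). Without array 2 of WT CDPs with vehicle, 9 members rose, with Lipa (adjusted p = 0.00843 in limma) and Man2b1 added to the 7. Lower means in CDPs included Atp6v1a, the catalytic subunit of the pump (-0.44, adjusted p = 0.0895 in limma), Gusb, the β-glucuronidase (-0.27, adjusted p = 0.193), Atp6ap2, an assembly factor of the pump (-0.26, adjusted p = 0.0706) and Lamp1 (-0.23, adjusted p = 0.291). Among V0 subunits Atp6v0a1, which helps form the path of the protons, differed most (0.29, adjusted p = 0.498 in limma). Some of these passed as lower under other settings. Without array 1 of WT CDPs with GSI, Lamp1 (adjusted p = 0.0247 in limma) and Atp6v1a (adjusted p = 0.017) fell. Atp6ap2 fell without array 2 of WT MDPs with GSI (adjusted p = 0.0342 in limma) and with a replicate block (adjusted p = 0.0264). Glb1, the β-galactosidase, fell without array 1 of WT MDPs with GSI and after repeated quantile normalization.

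**Figure D3:**
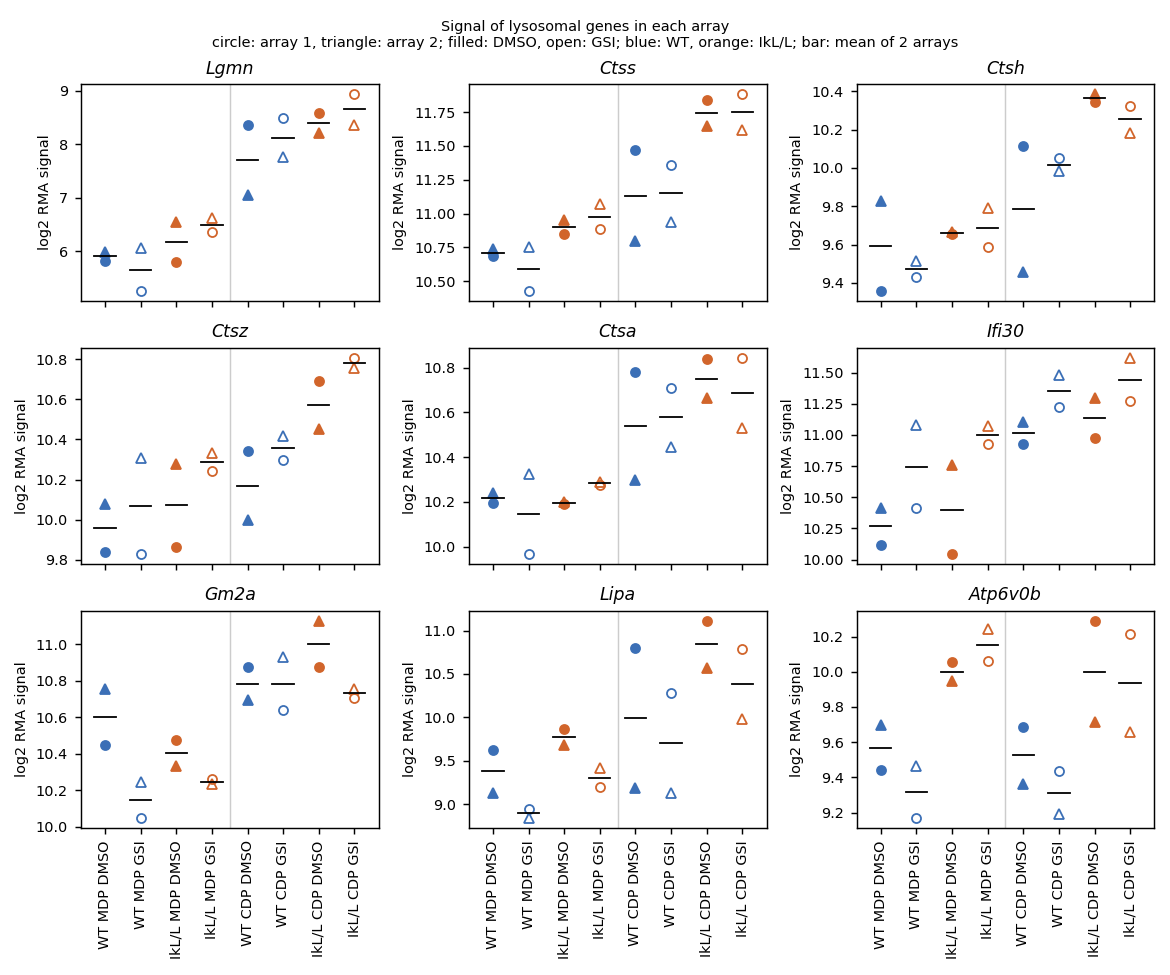
Log2 RMA signal of 9 genes in each of the 16 arrays, with MDPs left and CDPs right of the grey line. Circles are array 1, triangles array 2, filled symbols vehicle (DMSO), open symbols GSI, blue WT, orange IkL/L, and bars the mean of 2 arrays, with a separate vertical scale per gene. Lgmn lies between 5.26 and 6.62 in MDPs and between 7.06 and 8.94 in CDPs, and Atp6v0b is at most 9.70 in WT.

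Markers of more mature DCs rose with the same comparison: 12 of 13 mature DC markers, 8 of 8 pDC markers and 5 of 8 cDC markers. The mean level of the mature DC markers ran from 4.82 to 5.51 in MDP arrays. It ran from 5.34 to 5.75 in WT CDP arrays and from 7.97 to 8.55 in IkL/L CDP arrays. DCs of these types express Ctss and Ifi30 too, and their part in the rise was not tested. Of 12 monocyte and macrophage markers 2 rose and 1 fell. Of 15 neutrophil markers 4 fell in CDPs, led by the granule genes Elane and Mpo, and 2 rose.

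A wider list of 63 other lysosomal genes moved in both directions, with 10 that rose and 7 that fell in CDPs. Ctsg, a serine protease of neutrophil granules that is also in the neutrophil list, fell by 3.55 on the log2 scale (adjusted p = 3.68e-04 in limma). Ids, the iduronate sulfatase, rose by 0.81 (adjusted p = 1.70e-04), Prcp, a carboxypeptidase, by 0.39 (adjusted p = 7.15e-04) and Slc15a3, a peptide transporter of the lysosomal membrane, by 1.24 (adjusted p = 0.00417 in limma).

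IkL/L and WT cells were compared to see how reduced Ikaros function goes with lysosomal mRNA. Averaged over stage and treatment, Atp6v0b and Ctss rose in IkL/L cells and 0 of the 43 genes fell. That is 4.65% of the 43 genes, where 3.85% of all genes rose and 2.15% fell. The share called in this fit was thus near the background. With the replicate number as a block within each stage, chosen after seeing the data, 11 members passed, all higher. Under that block 6.23% of all genes rose, so the share called there was above the background. Without array 1 of WT CDPs with vehicle 5 members rose. Without adjustment, 9 were higher and 1 lower at p under 0.05, where 9.48% and 8.64% of all genes were. The direction of the means was less even: 35 of the 43 genes had a higher mean in IkL/L cells, against 41.1% of all genes. The median log2 difference was 0.12 over the 43 genes and -0.02 over all genes. After repeated quantile normalization 31 of the 43 were higher, with a median of 0.06. By role, 6 of 7 cysteine cathepsins and legumain, all 4 other proteases and reductase, all 11 proton pump genes and 5 of 6 membrane proteins and regulators had higher means. Among the 8 glycosidases 5 were lower.

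Atp6v0b encodes a proteolipid subunit of the membrane ring through which protons pass. In MDPs its log2 signal was 9.44 and 9.70 in WT with vehicle against 10.06 and 9.95 in IkL/L, and 9.17 and 9.47 against 10.06 and 10.24 with GSI. In CDPs it was 9.69 and 9.36 against 10.29 and 9.71 with vehicle, and 9.44 and 9.19 against 10.21 and 9.66 with GSI. The IkL/L arrays lay above the WT arrays in all 4 pairs of groups, by a narrow margin in vehicle-treated CDPs. The averaged difference was 0.59 ± 0.11 (log2, SE), a 1.51-fold rise, with adjusted p = 0.0124 in limma. Leaving out any 1 array, array 2 of WT CDPs with vehicle included, kept this call, with adjusted p between 0.0074 and 0.0386.

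Ctss measured 10.68 and 10.74 in WT MDPs with vehicle against 10.85 and 10.95 in IkL/L MDPs, and 10.43 and 10.75 against 10.88 and 11.07 with GSI. In CDPs it measured 11.47 and 10.79 against 11.84 and 11.65 with vehicle, and 11.36 and 10.94 against 11.88 and 11.62 with GSI. Again the arrays of the genotypes did not overlap in any of the 4 pairs, which held for 2.44% of all genes in this direction. The averaged difference was 0.45 ± 0.11 (log2, SE), a 1.36-fold rise, with adjusted p = 0.0355 in limma. This call was less stable: it was lost without any of 11 of the 16 arrays (adjusted p up to 0.0967) and when quantile normalization was repeated (log2 difference 0.35, adjusted p = 0.0802). It was kept without array 2 of WT CDPs with vehicle (log2 difference 0.36, adjusted p = 0.0475 in limma).

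Members that did not pass included some with differences of similar size and wider spread. They were Lipa (0.59 ± 0.25, adjusted p = 0.251 in limma), Lgmn (0.57 ± 0.22, adjusted p = 0.189) and Atp6v0a1 (0.48 ± 0.19, adjusted p = 0.205), each higher in 4 of 4 pairs of groups. Without array 2 of WT CDPs with vehicle these differences were 0.38, 0.41 and 0.36. Atp6v0a1 then differed by -0.03 in vehicle-treated CDPs, so it was no longer higher in every pair. Ctsd, the main aspartic protease of lysosomes, differed by 0.29 (adjusted p = 0.49 in limma). The accessory subunit Atp6ap1 differed by 0.25 (adjusted p = 0.123), Cln3, a membrane protein mutated in juvenile Batten disease, by 0.21 (adjusted p = 0.421) and Gaa, the acid α-glucosidase, by 0.19 (adjusted p = 0.552). Among the V1 subunits Atp6v1c1 differed most (0.13, adjusted p = 0.685 in limma). The most negative value was that of Glb1, the β-galactosidase (-0.18, adjusted p = 0.122 in limma).

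**Figure D4:**
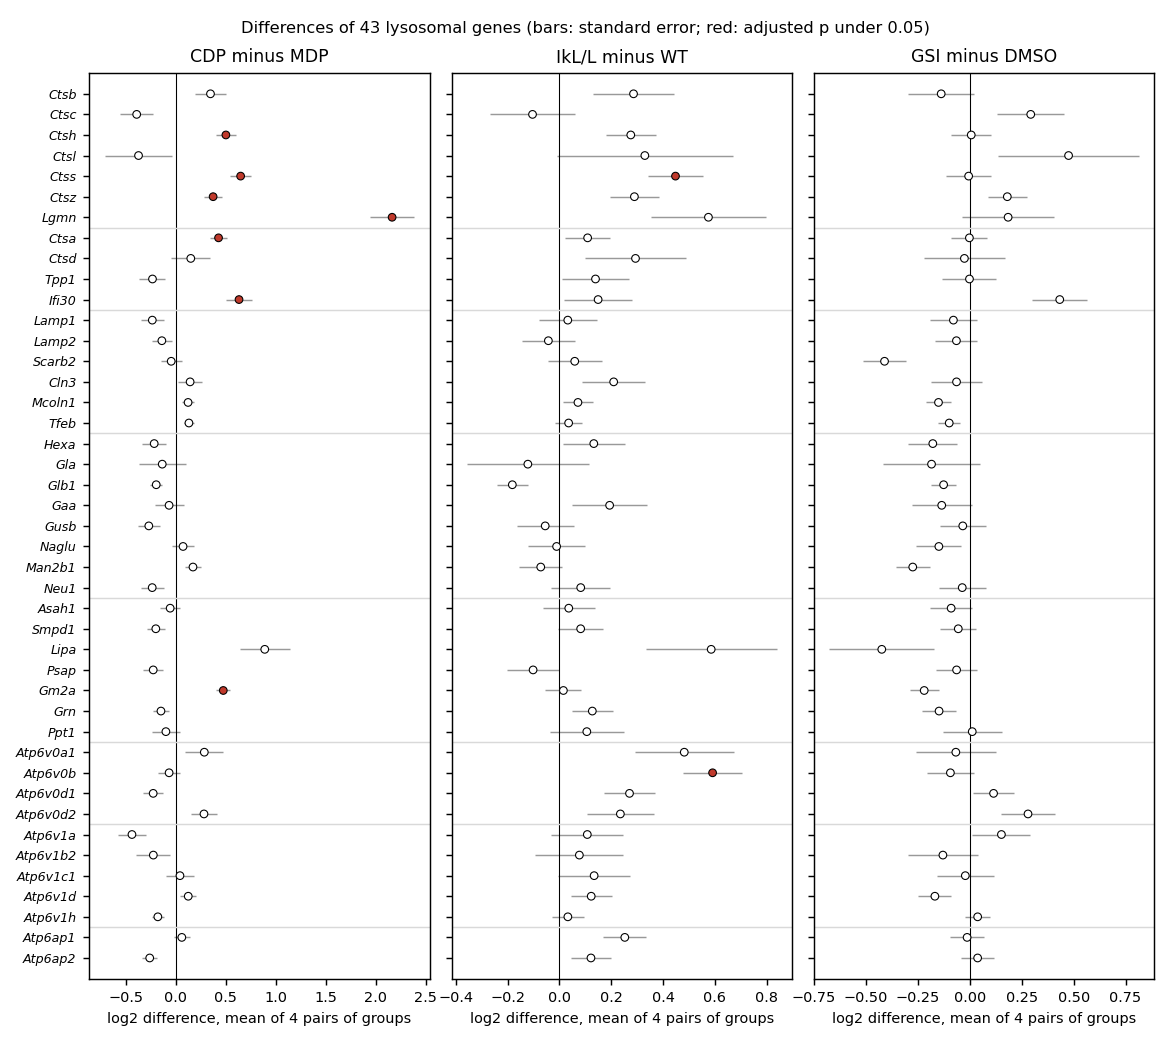
Averaged log2 differences of the 43 genes for CDP minus MDP, IkL/L minus WT and GSI minus vehicle (DMSO), each over 4 pairs of groups, with bars of 1 standard error and grey lines between role groups. The 3 panels have separate horizontal scales. Red points passed adjusted p under 0.05: 7 for stage, led by Lgmn at 2.16, 2 for genotype and 0 for GSI.

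In the single strata 0 of the 43 genes passed. In vehicle-treated CDPs 1.18% of all genes passed, in vehicle-treated MDPs 0.105%, in CDPs with GSI 2.15% and in MDPs with GSI 0.115%. With vehicle, 32 of the 43 had a higher mean in IkL/L CDPs (43.5% of all genes) and 27 in IkL/L MDPs (49.8%), with median log2 differences of 0.13 and 0.06. With GSI the counts were 35 (45.3%) and 39 (44.1%), with medians of 0.19 and 0.16.

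At an unadjusted p under 0.05, 2 genes were higher and 1 lower in vehicle-treated CDPs, where 9.38% of all genes passed in either direction. The largest differences there were those of Lipa (0.85), Lgmn (0.68) and Ctss (0.61). These rested on array 2 of WT CDPs with vehicle: without it they were 0.05, 0.03 and 0.27, 0 genes had an unadjusted p under 0.05, and Gla (-0.60) differed most. In vehicle-treated MDPs 0 passed (4.41% of all genes), and Ctsl (0.56), Atp6v0b (0.43) and Lipa (0.40) differed most. With GSI, 3 were higher and 1 lower in CDPs (10.5% of all genes), with the largest differences in Atp6v0a1 (0.83), Lipa (0.68) and Atp6v0b (0.62). In MDPs with GSI 1 was higher (6.81% of all genes), Atp6v0b with 0.84, followed by Lgmn (0.83) and Atp6v0a1 (0.60).

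The medians in CDPs depended on single arrays. In vehicle-treated CDPs, array 2 of WT was the array with raised Mpo and Elane. Without it 16 of the 43 genes were higher, against 9687 of all 19938 genes, and the median was -0.10. Without array 1 of the same group it was 0.31, and Ctsh passed the test. In CDPs with GSI it was 0.41 when array 1 of WT was left out, and -0.01 when array 1 of IkL/L was. In vehicle-treated MDPs it was -0.05 without array 1 of WT MDPs. Averaged over stage and treatment it stayed between 0.07 and 0.18 whichever array was left out, with 28 to 38 of the 43 genes higher.

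**Figure D5:**
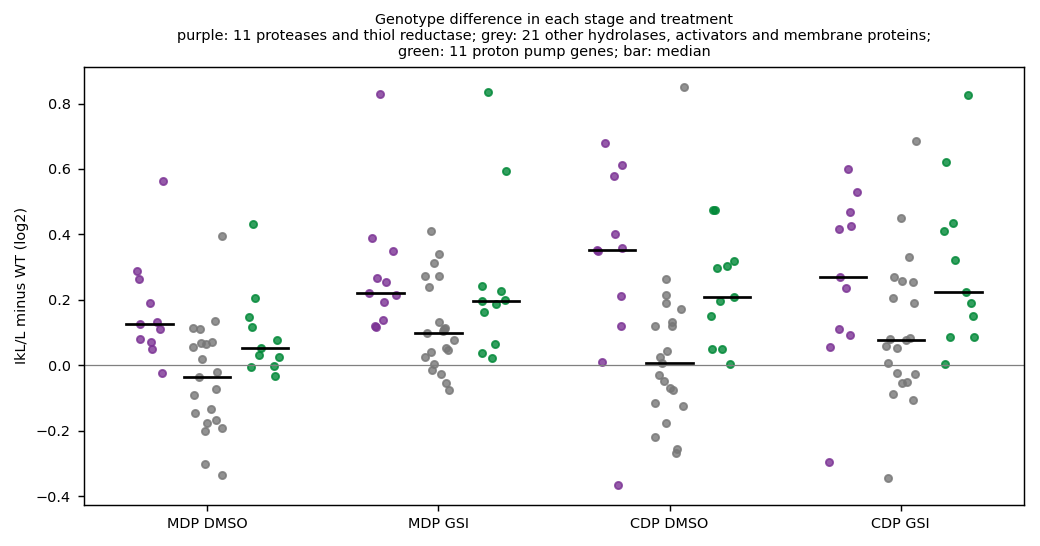
Log2 difference between IkL/L and WT cells for each lysosomal gene in the 4 combinations of stage and treatment. Purple points are the 11 proteases and thiol reductase, grey points the 21 other hydrolases, activators and membrane proteins, green points the 11 proton pump genes, and bars the median of each. Over all 43 genes the medians are 0.06 in MDPs and 0.13 in CDPs with vehicle, and 0.16 and 0.19 with GSI.

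The genotype difference was not found to differ between stages. In the test of that interaction with vehicle, 0 of the 43 genes passed and 0 had an unadjusted p under 0.05, where 0.105% and 3.47% of all genes did. The largest interaction was that of Ctsh (0.51 ± 0.28 SE, adjusted p = 1 in limma), whose genotype difference was 0.58 in CDPs and 0.07 in MDPs. Without array 2 of WT CDPs with vehicle the interaction of Ctsh was 0.18. The interaction was then positive for 12 of the 43 genes in place of 32, against 9710 of all 19938 genes without that array.

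Markers of other cells also differed with genotype. Of 13 mature DC markers 12 rose in IkL/L cells, as did 9 of 15 neutrophil markers, 2 of 8 cDC markers, 2 of 6 mast cell and basophil markers, and Mrc1 and Cd14 among 12 monocyte and macrophage markers. The mean level of the mature DC markers ran from 4.82 to 5.75 in WT arrays. In IkL/L cells it ran from 5.06 to 5.51 in MDP arrays and from 7.97 to 8.55 in CDP arrays. That of the neutrophil markers ran from 7.61 to 9.13 in WT arrays and from 8.70 to 10.23 in IkL/L arrays. Their part in the differences of Atp6v0b and Ctss was not tested.

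Among the 63 other lysosomal genes 6 rose in IkL/L cells and 1 fell. Cst3, the secreted inhibitor of cysteine cathepsins, rose by 0.40 on the log2 scale (adjusted p = 4.94e-04 in limma) and Prcp by 0.28 (adjusted p = 0.00672). Ctsk, a cathepsin best known for degrading collagen in osteoclasts, rose by 1.31 on average (adjusted p = 0.00787 in limma). Its difference was 0.29 in MDPs and 2.34 in CDPs, and its WT values of 3.60 to 4.13 lay below every array median. Ctse, an endosomal aspartic protease, fell by 1.11 (adjusted p = 0.00825 in limma). In GSI-treated CDPs alone Ctsk and Cst3 rose, by 2.61 (adjusted p = 0.0172) and 0.46 (adjusted p = 0.024 in limma). The proton pump genes Atp6v0a2 and Atp6v1g1, named after their values were seen, were among the 6, at adjusted p = 0.031 and 0.0191 in limma. The call of Atp6v0a2 was kept under 12 of 24 other settings and that of Atp6v1g1 under 23.

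GSI was compared with vehicle to see whether γ-secretase inhibition went with lysosomal mRNA. Averaged over the 4 populations, 0 of the 43 genes passed in the main fit, where 0.221% of all genes rose and 0.0853% fell. With the replicate number as a block Ifi30 passed, where 0.883% of all genes did. With a block within each stage, chosen after seeing the data, 4 members passed, where 1.83% of all genes did. At an unadjusted p under 0.05 in the main fit, Ifi30 was higher, and Scarb2, Man2b1, Gm2a and Mcoln1 were lower, where 6.01% and 5.42% of all genes were. Man2b1, an α-mannosidase, passed as lower without array 2 of WT CDPs with vehicle. The means were lower with GSI for 31 of the 43 genes, against 42.7% of all genes, and for all 8 glycosidases and all 6 membrane proteins and regulators. The median log2 difference was -0.06, against 0.01 over all genes. In each of the 4 populations alone 0 of the 43 passed, where 0% of all genes passed in WT MDPs and IkL/L MDPs, 0.01% in WT CDPs and 0.00502% in IkL/L CDPs. At an unadjusted p under 0.05 there were 3 in WT MDPs (6.77% of all genes), 1 in WT CDPs (4.1%), 1 in IkL/L MDPs (2.62%) and 2 in IkL/L CDPs (3.5%).

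Scarb2, the membrane protein that carries β-glucocerebrosidase to lysosomes, had the lowest p. In WT MDPs it was 9.04 and 9.23 with vehicle and 8.34 and 8.68 with GSI, and in IkL/L MDPs 9.13 and 8.88 against 8.83 and 8.87. In CDPs it was 9.17 and 8.95 against 8.90 and 8.27 in WT, and 9.11 and 8.95 against 8.83 and 8.46 in IkL/L. The GSI arrays lay below the vehicle arrays in all 4 populations, as for 0.572% of all genes, but the difference of -0.41 ± 0.10 (log2, SE) did not pass (adjusted p = 0.146 in limma). Ctsl and Ifi30 had higher means with GSI, by 0.48 ± 0.34 and 0.43 ± 0.13, and Lipa a lower mean, by -0.42 ± 0.25 (SE), in 4 of 4 populations each. Their adjusted p in limma was 0.636, 0.234 and 0.562.

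By population, Ctsl (0.89), Scarb2 (-0.63) and Ctsc (0.56), a peptidase that activates granule proteases, differed most in WT MDPs. In IkL/L MDPs these were Ctsl (0.68), Ifi30 (0.60) and Ctsc (0.55). In WT CDPs they were Scarb2 (-0.48), the sialidase Neu1 (-0.46) and Gla (-0.45). Without array 2 of WT CDPs with vehicle Lipa (-1.09), Gla (-0.79) and Atp6v0a1 (-0.73) differed most in WT CDPs. Of the 43 genes 4 were then higher with GSI in place of 11, against 11225 of all 19938 genes without that array. In IkL/L CDPs Atp6v0d2 (0.46), Lipa (-0.45) and Scarb2 (-0.39) differed most. None passed with all arrays, where adjusted p was 0.677 or more in limma, nor in WT CDPs without that array. The test of a different GSI effect in IkL/L and WT CDPs called 0 of the 43 genes, where 0% of all genes passed. At an unadjusted p under 0.05 it called 0 members and 1.43% of all genes. The median of this interaction over the 43 genes was 0.06, and 0.25 without array 2 of WT CDPs with vehicle. Without that array it was positive for 37 of the 43 genes, against 9511 of all 19938 genes. The comparisons of GSI share the vehicle arrays with those of genotype and stage.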

How the data were processed

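The deposited values are log2 signals that the authors computed with RMA in Affymetrix Expression Console 1.4.1. The array annotation gives 1 gene symbol for 21789 of 28188 probe sets, more than 1 for 1621 and no symbol for 4778. The first kind was used, with the brightest probe set per gene, which left 19938 genes. Arrays were grouped by sample titles. The methods name no test, so all arrays and genes entered 1 limma fit of 8 group means (R 4.3.3, limma 3.58.1; 8 residual and 2.35 prior degrees of freedom). Tests were moderated by eBayes and two-sided, with Benjamini-Hochberg adjustment over all genes and a threshold of 0.05, in 15 comparisons. The code was tested on simulated data. Which arrays share a mouse is not stated, so p-values measure only the spread between these arrays, which may be technical. The number of arrays limits the precision.

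Named genes were every member called, those with the largest difference by role or comparison, and up to 4 called genes of the other lysosomal list per comparison. Members and lists were chosen with earlier results of these data known. Motifs were searched in RefSeq promoter windows (GRCm38.p6), and no coordinates of the probe sets were used. Alternatives were repeated quantile normalization, genes above the median signal, the mean of probe sets, trended and robust eBayes, array weights, replicate blocks, fits of the compared groups alone and leaving out each array.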

Additional observations from a re-analysis of the deposited data

Results flagged for a closer look

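In MDPs, the differences of Lamp1 and Gla with GSI had opposite signs in the 2 genotypes, and the GSI and vehicle arrays did not overlap in either. The log2 difference of Lamp1 was 0.0739 in IkL/L MDPs and -0.12 in WT MDPs. For Gla it was 0.0897 in IkL/L MDPs and -0.27 in WT MDPs. The difference between genotypes was not tested for MDPs, and none of the 4 values passed the test of GSI against vehicle. How many of all genes have this pattern was not counted. These 2 members may thus be no more than the background share.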

How the results depend on the processing

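The counts of members called, the members' medians, the differences of the named members in the averaged comparisons and the calls of the other lysosomal genes in those comparisons were recomputed under 8 other settings and without each of the 16 arrays, and no call turned its direction. The promoter matches, the marker counts and, apart from leaving out 1 group, the gap between replicate arrays were not recomputed. Of the 63 other lysosomal genes 3 to 21 rose and 1 to 2 fell for genotype, and 7 to 14 rose and 4 to 12 fell for stage. After repeated quantile normalization, and without array 1 of WT MDPs with GSI, Glb1 fell in IkL/L cells and Ctss did not pass. Signal over background, which would show where low values lose precision, is not part of the values used. The replicate numbers were checked by correlating the differences between arrays 1 and 2 of 2 groups: r was 0.35 to 0.66 between CDP groups, -0.11 to 0.48 between MDP groups and -0.25 to 0.31 between the stages. The differences thus went together between CDP groups, but not throughout the MDP groups or between the stages. No source used here ties the numbers to a mouse or day, so the main fit left them out. Its calls do not account for the shared difference in CDPs. With a replicate block, 3 members passed for stage in vehicle-treated IkL/L cells (Lgmn, Ifi30 and Gm2a, against 1 without, with 2.86% of all genes) and 1 for GSI (Ifi30, against 0, with 0.883%). It called 3 for genotype (8.09% of all genes) and 9 for stage on average (11.1%), of which Atp6ap2 fell. A replicate block within each stage, chosen after seeing the data, called 23 members for stage on average, 10 that rose and 13 that fell, where 6.66% and 6.74% of all genes did. Those that fell were Ctsc, Ctsl, Tpp1, Lamp1, Hexa, Gusb, Psap, Grn, Atp6v0d1, Atp6v1a, Atp6v1b2, Atp6v1h and Atp6ap2. For genotype on average it called 11, all higher (6.23% of all genes were), and 1 in vehicle-treated CDPs (2.5% of all genes), 2 in CDPs with GSI (4.13%) and 1 in MDPs with GSI (0.326%). It called 1 for stage in vehicle-treated WT cells (0.441%), 7 in IkL/L cells (4.31%), and 4 for GSI (1.83%). Stage in IkL/L cells gave 2 calls after repeated quantile normalization and 3 with array weights. Leaving out 1 array gave 1 to 5 calls for genotype on average, 6 to 9 for stage on average, 0 to 3 for stage in IkL/L cells, 0 to 1 for GSI and 0 to 1 for genotype in vehicle-treated CDPs. The highest count for genotype, 5, came without array 1 of WT CDPs with vehicle (Ctsh, Lgmn and Atp6ap1 added), and the single GSI call, Man2b1, without array 2. Beyond these settings the cause of a changed count was not tested.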
